A study of Mus musculus with 28 samples.

Results

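The transcripts described here are 10 marker genes of T cells and natural killer (NK) cells, Cd3d, Cd3e, Cd3g, Cd2, Cd4, Cd8a, Cd8b1, Gzmb, Nkg7 and Il2rb. They were found by their symbols among the 39152 gene symbols of the count table, and each of the 10 had 1 row. Their levels were measured by bulk RNA sequencing of left ventricle (LV) and right ventricle (RV) pieces of C57BL6 mice, to see whether immune cell transcripts in the heart differ after loss of plakophilin 2 (Pkp2) and after gene replacement. All animals carried floxed Pkp2 alleles (Pkp2 fl/fl). The control group (WT) held Cre-negative littermates that received the buffer HBSS, with 5 LV and 3 RV libraries. The Pkp2-cKO group (cKO) carried αMyHC-Cre-ER(T2), a Cre recombinase that tamoxifen activates in cardiomyocytes and not in immune cells, and received HBSS, with 4 LV and 4 RV libraries. The treated groups were Pkp2-cKO animals given TN-401, an AAV9 vector carrying human PKP2, as a single retro-orbital dose of 3E13 vg/kg (3E13, with 4 LV and 2 RV libraries) or 6E13 vg/kg (6E13, with 3 LV and 3 RV libraries), 1 week before tamoxifen. WT and cKO animals received no vector, so exposure to the vector and return of PKP2 cannot be told apart in the treated groups. Tamoxifen was given to adult animals. Animals were collected 9 weeks later, and no separate time is given for the buffer-treated cKO animals.

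T cells recognize peptides on other cells through the T cell receptor, which signals through the CD3 chains encoded by Cd3d, Cd3e and Cd3g. The coreceptors divide the T cells into helper and regulatory cells, which carry CD4, and cytotoxic cells, which carry the CD8 dimer encoded by Cd8a and Cd8b1. Cytotoxic T cells and NK cells kill target cells with granules that hold granzyme B (Gzmb) and the granule membrane protein NKG7, and both depend on cytokines that act through the receptor chain encoded by Il2rb. Cd2 encodes an adhesion molecule of T and NK cells. None of these transcripts is exclusive to T and NK cells, since some dendritic cells also carry Cd4 or Cd8a and mast cells can carry Gzmb. In a bulk sample, more cells of a type and more RNA per cell cannot be told apart.

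In the GRCm39 build, the CD3 genes lie in 1 cluster, with Cd3g at chr9:44880870-44891735 on the minus strand, Cd3d at chr9:44893083-44899173 on the plus strand and Cd3e at chr9:44910037-44920925 on the minus strand. Cd3g and Cd3d point away from each other with 1347 bases between the genes. Cd8b1, at chr6:71299772-71315087, and Cd8a, at chr6:71350411-71356157, are also neighbours, both on the plus strand with 35323 bases between them. Cd4 lies at chr6:124841655-124874758, Cd2 at chr3:101183215-101195458, Gzmb at chr14:56496295-56499717 and Il2rb at chr15:78363456-78395566, all on the minus strand, and Nkg7 at chr7:43086497-43087678 on the plus strand. Cd3e and Cd8b1 each overlap 1 annotated gene on the same strand, so reads there could be shared.

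Promoter windows from RefSeq (GRCm38.p6, 250 bases before to 50 bases after the start of the gene, 300 bases in all) were found for 6 of the 10 members. Stretches around 2 of the short motifs searched are shown. They were picked because they set the CD3 genes apart from the granule genes in these windows, so that split follows from the choice. The E box CAGGTG, searched on both strands, was present in the windows of the 3 CD3 genes, in 3 of the 6 windows, and in 20.2% of all 32851 windows. The capitals mark the motif as it reads on the strand of the gene, CACCTG in each case, with 12 bases on either side.
Cd3g, first E box, chr9:44980562-44980591, minus strand: ctcatcccctgcCACCTGctatcctgcaag
Cd3g, second E box, chr9:44980449-44980478, minus strand: agagggcggagaCACCTGgtattgcctcta
Cd3d, chr9:44981662-44981691, plus strand: aagagcagtttgCACCTGtttgtgttttac
Cd3e, chr9:45009591-45009620, minus strand: gtggggttcagaCACCTGcctcccctgtct
The RUNX motif TGTGGT, on both strands, was present in the windows of the 2 granule genes, Nkg7 and Gzmb, and in 16.8% of all windows. Here the capitals mark TGTGGT, or ACCACA where the motif lies on the other strand.
Nkg7, chr7:43437043-43437072, plus strand: gggcccacccctACCACAtaggaggagagg
Gzmb, first match, chr14:56262410-56262439, minus strand: accctatgccctTGTGGTcttgccctgggc
Gzmb, second match, chr14:56262351-56262380, minus strand: tgtgggttctgcTGTGGTtacttcatgatt
The ETS motif AGGAAG was in the windows of Nkg7, Cd3d and Cd3e and in 35.4% of all windows, and Cd3e also held the longer ACAGGAAG, which 3.58% of all windows held. TTTCCG and TATAAA were in none of the 6 windows and in 8.89% and 13.6% of all windows. No binding was measured, so a match describes the letters of the window and no more.

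Total counts ran from 19364738 to 39381147 per library, and the share of mitochondrial genes from 15.0% to 39.6%, with its lowest values in cKO. Mouse Pkp2 matched the labels, at 110.3 to 122.0 CPM (counts scaled to library size) in the WT RV and 30.2 to 38.9 CPM in the cKO RV, and human PKP2 had 0 counts in each WT and cKO library and 167.3 CPM or more in each treated library. The 8 ventricular muscle genes used as a check of the tissue summed to 11167 CPM or more in every library. Library cKO 177 stood apart in both ventricles, with a summed level of these genes of 11196 CPM in the LV, where the WT libraries had 37380 CPM or more, and the highest Ptprc, the pan-leukocyte gene that encodes CD45, at 165.5 CPM. Libraries cKO 180 and cKO 257 of the RV held the most atrial muscle transcripts, a summed 1287 and 1726 CPM against at most 370.3 CPM in the treated RV libraries.

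The members were low in every group, and counting set the limits. Levels are given as CPM after TMM scaling, where 3 counts, the limit that a count of 0 allows, amounted to between 0.083 and 0.158 CPM. Of the 280 values (10 genes in 28 libraries), 21 were 0. Gzmb was the scarcest member, with 12 counts at most in any library and 3 counts or fewer in 16 of 28 libraries. Cd3d reached 40 counts, and it was at 3 counts or fewer in 14 libraries. Nkg7 was at 0 in 7 libraries, among them the 3 WT RV libraries. Cd3e, Cd2, Cd4 and Il2rb had at least 4 counts in every library, and Cd3e rose highest, to 221 counts.

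The filter on low counts kept 9 members in the LV, without Gzmb, and 10 in the RV. In each ventricle, 8 of those members would not have passed on the WT libraries alone, so they were tested because other groups had more of them. A member that enters a test in this way had to be higher outside WT. The counts and median fold changes of members below describe the genes without standing as support for one another. Medians against WT lean upward through this selection, also where the median of all genes is given beside them.

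Per transcript length, in TPM, which divides counts by transcript length, the order of the members in the RV of 3E13 animals, where they were highest, was led by Nkg7 at 4.46 ± 2.69 TPM (SD, n = 2) and Cd3e at 4.04 ± 1.63 TPM. Cd2 and Cd3g followed at 2.20 ± 0.27 and 2.05 ± 1.59 TPM. Cd8b1 at 1.26 TPM, Cd8a at 1.25 TPM and Il2rb at 1.13 TPM were next to each other, with SDs between 0.08 and 0.44 TPM. Cd4 was at 0.89 TPM, Cd3d at 0.44 TPM and Gzmb at 0.21 TPM. Most neighbours in this order lay within their spread between the 2 animals, with the exception of Cd3e, at 2.88 and 5.19 TPM, and Cd2, at 2.01 and 2.39 TPM, whose ranges did not overlap.

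**Figure D1:**
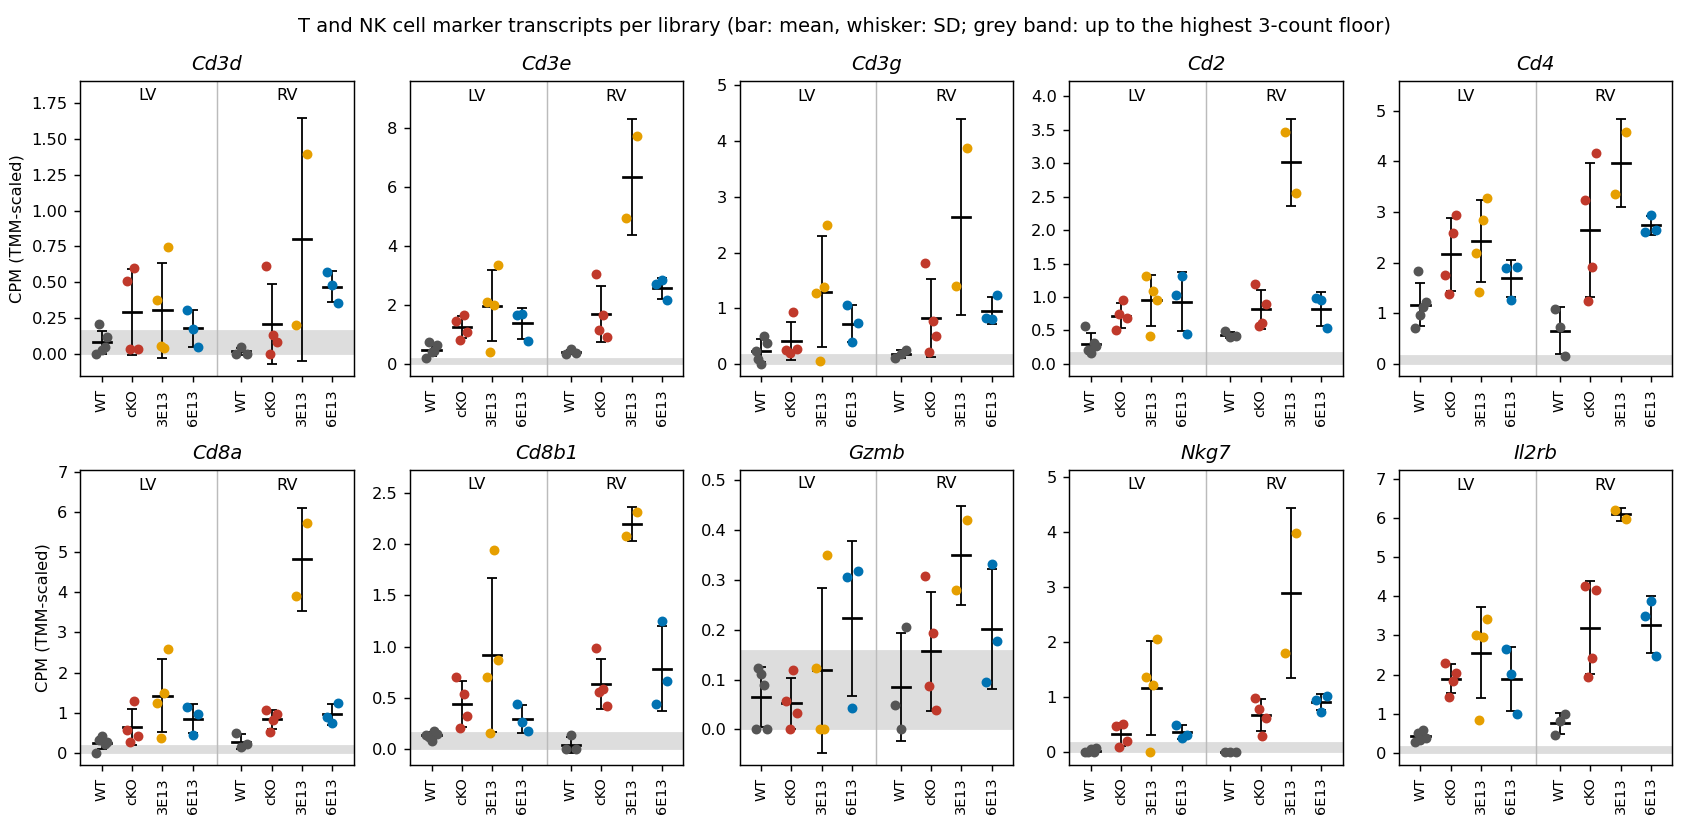
CPM (TMM-scaled) of each of the 10 markers, 1 panel per gene, with LV groups on the left and RV groups on the right of each panel. Points are libraries, bars are means and whiskers SDs, and the grey band reaches the highest level that 3 counts give in any library, 0.158 CPM; both 3E13 RV libraries lie above all cKO RV libraries for 6 genes, Cd3e, Cd2, Cd8a, Cd8b1, Nkg7 and Il2rb.

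In the LV of cKO animals, 6 of the T and NK cell markers were higher than in WT animals. The summed CPM of the 10 members was 8.19 ± 2.40 (SD, n = 4) in cKO and 3.17 ± 0.81 (n = 5) in WT, 2.58 times as high. Of the 9 members tested, 6 rose (edgeR's quasi-likelihood test, Benjamini-Hochberg adjusted p under 0.05), namely Cd3e, Cd2, Cd4, Cd8b1, Nkg7 and Il2rb, where 19.7% of all 16410 genes tested were called higher. The median log2 fold change of the 9 members was 1.35, and that of all genes 0.05.

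Il2rb, the receptor chain for interleukin-2 and interleukin-15, was at 0.28, 0.49, 0.33, 0.58 and 0.38 CPM in the WT LV libraries and at 2.30, 1.42, 1.83 and 2.03 CPM in the cKO libraries. The groups did not overlap, and the log2 fold change was 2.19 ± 0.39 (SE), with an adjusted p of 0.000642 by edgeR. It was the 1 member of the LV whose call held under each of its 24 alternatives. Cd3e, the chain with the most counts of the CD3 complex, was at 0.19, 0.74, 0.41, 0.45 and 0.65 CPM in WT and 1.46, 0.81, 1.65 and 1.08 CPM in cKO. These groups did not overlap either, and Cd3e rose by 1.35 ± 0.49 on the log2 scale with an adjusted p of 0.0439. Cd3g, a second chain of the complex, had a log2 fold change of 0.81 ± 0.90 and did not pass, with an adjusted p of 0.521.

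Among the coreceptors, Cd8b1 was at 0.08 to 0.18 CPM in WT and at 0.70, 0.20, 0.54 and 0.33 CPM in cKO, a log2 fold change of 1.69 ± 0.61 with an adjusted p of 0.0411. Cd8a, its partner in the dimer, had a log2 fold change of 1.32 ± 0.69 that did not pass, with an adjusted p of 0.15. Cd4 rose by 0.88 ± 0.32 on the log2 scale, from 1.17 ± 0.42 to 2.17 ± 0.72 CPM, and the WT and cKO ranges overlapped. Cd2 rose by 1.26 ± 0.45. Nkg7 had 0 counts in 3 of the 5 WT libraries and 2 in each of the other two, and 17, 3, 17 and 6 counts in cKO, with an adjusted p of 0.0235. Gzmb, which the filter removed, had a mean of 0.065 CPM in WT and 0.052 CPM in cKO, and a two-sided exact permutation test of the 126 arrangements gave p = 0.738.

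The number of called LV members rested on single libraries. It was 1 without WT 637 or without cKO 257, and 2 without WT 636 or WT 647. It was 3 without WT 248, WT 626, cKO 264, 3E13 181 or 6E13 250, the last 2 of which enter through the shared estimate of spread.

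In the RV of cKO animals, most members were higher than in WT as well. The summed CPM was 11.7 ± 4.54 (n = 4) in cKO and 2.85 ± 0.22 (n = 3) in WT, 4.11 times as high. The ratio was 6.71 on plain library size and 8.13 in summed TPM. Of the 10 members, 7 rose (edgeR, adjusted p under 0.05), which were Cd3e, Cd3g, Cd4, Cd8a, Cd8b1, Nkg7 and Il2rb, while 19.7% of all 17307 genes were called higher. The median log2 fold change was 2.07 over the members, with Nkg7 at its fitted value or at its lower bound, and 0.06 over all genes.

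Cd3e was at 0.34, 0.50 and 0.37 CPM in the WT RV and at 3.04, 1.16, 1.65 and 0.93 CPM in the cKO RV. No cKO library reached down to a WT library, and the log2 fold change was 2.06 ± 0.43, with an adjusted p of 0.00279 by edgeR. Il2rb, at 0.44, 0.81 and 0.99 CPM in WT and 4.27, 1.94, 2.43 and 4.17 CPM in cKO, did not overlap between the groups and rose by 2.08 ± 0.37 with an adjusted p of 0.00101. Nkg7 had 0 counts in all 3 WT libraries and 29, 18, 9 and 16 counts in cKO, where its mean was 0.67 ± 0.29 CPM. Measured against a floor of 3 counts per WT library, Nkg7 was at least 4.93-fold higher in cKO, with an adjusted p of 0.00036.

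Cd4 was at 1.08, 0.72 and 0.16 CPM in WT and 3.25, 1.25, 1.91 and 4.17 CPM in cKO, with a log2 fold change of 2.02 ± 0.55 and no overlap. Cd8a rose by 1.59 ± 0.48, from 0.28 ± 0.19 to 0.84 ± 0.24 CPM. Cd8b1 had 3 counts over the WT libraries together and 71 counts over the cKO libraries, a ratio per library size of 14.4 with an exact 95% interval from 4.75 to 71.7 that covers counting error only. Both chains of the CD8 dimer thus passed in the RV. Cd3g rose by 2.20 ± 0.72 with overlapping groups, and Cd2 had a log2 fold change of 0.90 ± 0.41 that did not pass (adjusted p = 0.109), although each cKO library lay above the WT range of 0.41 to 0.49 CPM. Cd3d had 1 count over the WT libraries and 24 over the cKO libraries and did not pass, with an adjusted p of 0.0976. Gzmb was at 0.085 ± 0.108 CPM in WT and 0.157 ± 0.120 CPM in cKO, with an adjusted p of 0.582.

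Without any 1 library, between 5 and 8 members were called in this RV comparison, and Cd3e, Cd4, Cd8b1, Nkg7 and Il2rb were called under all 21 alternatives. The cKO libraries with the most atrial transcripts, 180 and 257, were among the lower of the cKO libraries in summed members, at 7.06 and 9.39 CPM, and cKO 177 was the highest at 17.5 CPM.

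**Figure D2:**
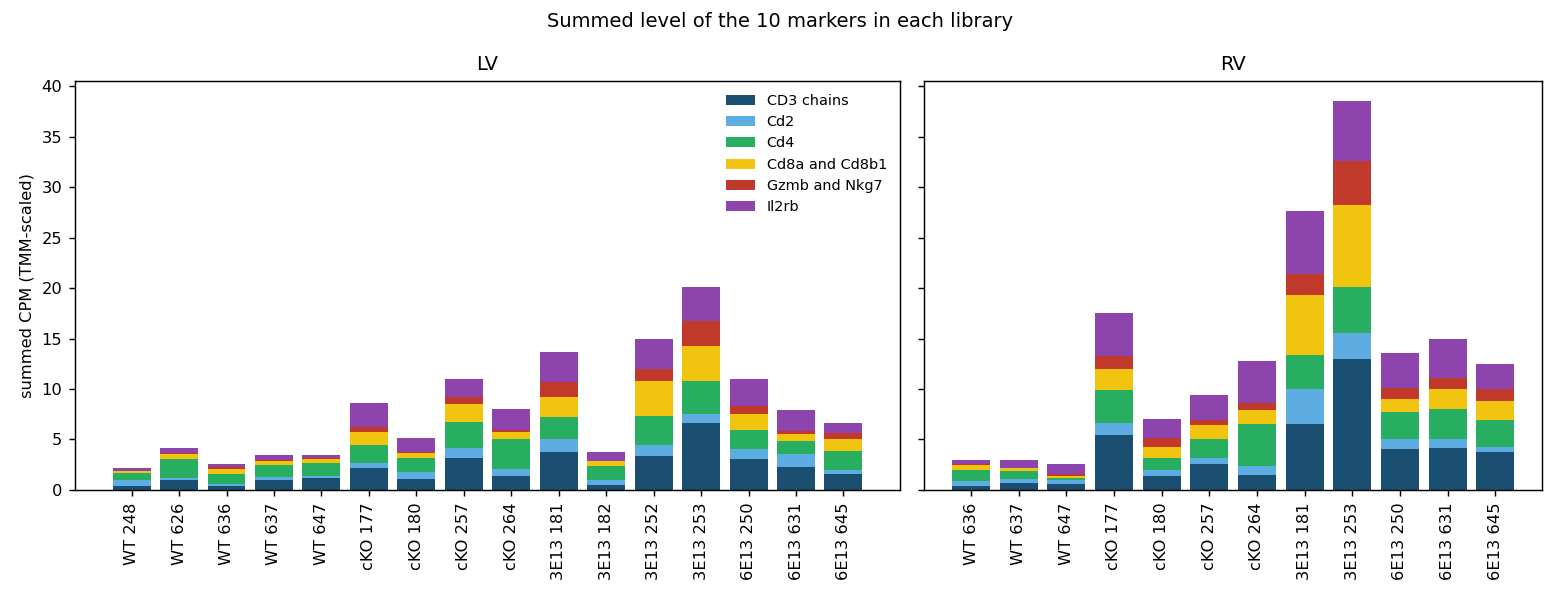
Summed CPM (TMM-scaled, y axis) of the 10 markers in each library (x axis, group and animal), stacked by role. WT libraries hold 2.13 to 4.14 CPM in the LV and 2.59 to 3.00 CPM in the RV, and the 2 RV libraries of 3E13 hold 27.6 and 38.6 CPM.

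The effect of the deletion was set against each other in LV and RV over the 12 animals that gave both, in a fit with a term for each animal. No member was called for a larger or smaller cKO effect in the RV than in the LV (edgeR, 2 members at an unadjusted p under 0.05), where 0.0222% of all genes were called in either direction. The 2 members were Nkg7, with a difference of the effects of 4.45 ± 1.64 on the log2 scale (adjusted p = 0.375), and Cd8b1, with 2.42 ± 1.09 (adjusted p = 0.466). Both had counts at or near 0 in the WT RV libraries, so the size of these differences was poorly set. Within cKO animals, RV and LV levels differed for none of the 10 members by the same test (1 member at an unadjusted p under 0.05), against 4.35% of all genes in either direction. That member was Il2rb, with a log2 difference of RV minus LV of 0.57 ± 0.23 and an adjusted p of 0.196. Within WT animals none was called either (2 members at an unadjusted p under 0.05), where 0.00556% of all genes were called.

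After TN-401 at 3E13 vg/kg, several T and NK cell markers were higher than in WT hearts in both ventricles, and in the RV 4 of them were also higher than in cKO hearts. The 2 RV libraries, 3E13 181 and 3E13 253, held a summed 27.6 and 38.6 CPM of the members. The 4 cKO RV libraries held 7.06 to 17.5 CPM, so the groups did not overlap in CPM. In TPM they did, since the sum was 12.8 and 23.1 TPM in the 3E13 libraries and 15.5 TPM in cKO 177. Relative to cKO, 4 of 10 members rose (edgeR, adjusted p under 0.05), which were Cd3e, Cd2, Cd8a and Nkg7, where 4.77% of all genes tested in the RV were called higher and 3.81% lower. The median log2 fold change was 1.82 over the 10 members and -0.02 over all genes, and each of the 10 had a positive value. For 6 members, both 3E13 RV libraries lay above each cKO RV library in CPM, which was so for 18.8% of all genes tested. In TPM this held for 3 members, Cd2, Cd8a and Cd8b1, and for 2.7% of all genes, while Cd3e, Nkg7 and Il2rb overlapped through cKO 177.

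Cd8a was at 3.91 and 5.73 CPM in the 3E13 RV, at 1.06, 0.52, 0.81 and 0.97 CPM in the cKO RV and at 0.49, 0.14 and 0.21 CPM in the WT RV. Both 3E13 libraries were above each of the others in CPM and in TPM, and Cd8a had the largest log2 fold change of the members relative to cKO, 2.51 ± 0.45, with an adjusted p of 0.0131. Cd3e was at 4.94 and 7.73 CPM, above the highest cKO value of 3.04 CPM, and rose by 1.89 ± 0.41 with an adjusted p of 0.0216. Cd2 was at 3.47 and 2.55 CPM, above the highest cKO value of 1.20 CPM, with a log2 fold change of 1.88 ± 0.42 and an adjusted p of 0.0232. Nkg7 was at 1.79 and 3.99 CPM against 0.99 CPM at most in cKO, and rose by 2.11 ± 0.53 with an adjusted p of 0.0393.

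Cd8b1, at 2.07 and 2.31 CPM, and Il2rb, at 6.22 and 5.98 CPM, also lay above the cKO range without passing the test, with log2 fold changes of 1.77 ± 0.70 and 0.93 ± 0.37 and an adjusted p of 0.133 for each by edgeR. Cd4 was the tested T cell member with the smallest value, 0.58 ± 0.54, and its 3E13 levels of 3.35 and 4.58 CPM overlapped those of cKO. Gzmb was at 0.28 and 0.42 CPM and did not pass either (adjusted p = 0.545).

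These 4 calls relative to cKO depended on both 3E13 libraries. Without 3E13 181 and without 3E13 253 no member was called, the lone remaining library then being taken to vary like the other groups. The log2 fold changes stayed positive, at 2.77 without 3E13 181 and 2.22 without 3E13 253 for Cd8a. With only the compared groups in the fit, 1 member, Cd8a, was called, and likewise 1, Cd8a, without the cKO libraries 180 and 257, an alternative chosen after seeing the data.

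Relative to WT, 8 of 10 members rose in the RV of 3E13 animals, with the exceptions of Cd3d and Gzmb, where 5.81% of all genes were called higher. The median log2 fold change over the members was 3.91, and 0.00 over all genes. Cd8a rose by 4.11 ± 0.54 (adjusted p = 0.00122), Cd3e by 3.95 ± 0.49 (adjusted p = 0.000945) and Il2rb by 3.01 ± 0.42 (adjusted p = 0.00162) by edgeR. Nkg7 was at least 21.3-fold higher against the floor of the WT libraries. Cd8b1 had 118 counts in the 2 libraries of 3E13 and 3 in the 3 of WT, a ratio of 48.9 per library size with an exact 95% interval from 16.3 to 240.4. Calls for Cd2, Cd3e, Cd8a, Cd8b1, Nkg7 and Il2rb held under each of the 20 alternatives.

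In the LV, the 3E13 animals differed among themselves. The summed members were at 13.7, 15.0 and 20.1 CPM in animals 181, 252 and 253 and at 3.73 CPM in animal 182, which lay inside the WT range of 2.13 to 4.14 CPM. Nkg7 had 33, 30 and 47 counts in the first 3 animals and 0 in animal 182, and Cd3g 31, 34 and 57 counts and 1 count. Animal 182 had 21.8 CPM of Ptprc, the lowest of the group, and a summed macrophage list of 458.7 CPM, the highest of the group. Its RV was not analysed here.

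Relative to WT, 4 of 9 members rose in the LV of 3E13 animals (edgeR, adjusted p under 0.05), namely Cd3e, Cd8b1, Nkg7 and Il2rb, where 1.95% of all genes were called higher. Over the members, the median was 2.46 on the log2 scale, and 0.01 over all genes. Il2rb, at 3.01, 0.84, 2.96 and 3.41 CPM, was above each WT library in all 4 animals and rose by 2.62 ± 0.40 with an adjusted p of 0.00274. Cd8b1 rose by 2.74 ± 0.61 and Cd3e by 2.00 ± 0.50, both with animal 182 inside the WT range. Cd8a and Cd2 had log2 fold changes of 2.48 ± 0.69 and 1.66 ± 0.46 that did not pass, with adjusted p of 0.0727 and 0.0685. The count was 1 without WT 248 or WT 626, and 2 without WT 636, WT 637, WT 647, 3E13 181 or 3E13 252. It was 0 by limma on log2(TPM + 1), a scale that shrinks the fold changes of genes this low.

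Relative to cKO, no member was called in the LV of 3E13 animals (edgeR, 0 at an unadjusted p under 0.05, and 0 by DESeq2), where 5.45% of all genes were called higher and 6.21% lower. All 9 log2 fold changes were positive, from 0.04 for Cd3d to 1.83 ± 0.89 for Nkg7, whose adjusted p was 0.187. Cd3g had 1.65 ± 0.91, Cd8a 1.15 ± 0.70 and Cd8b1 1.05 ± 0.60. Without animal 182, 1 member, Nkg7, was called, with a log2 fold change of 2.24.

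**Figure D3:**
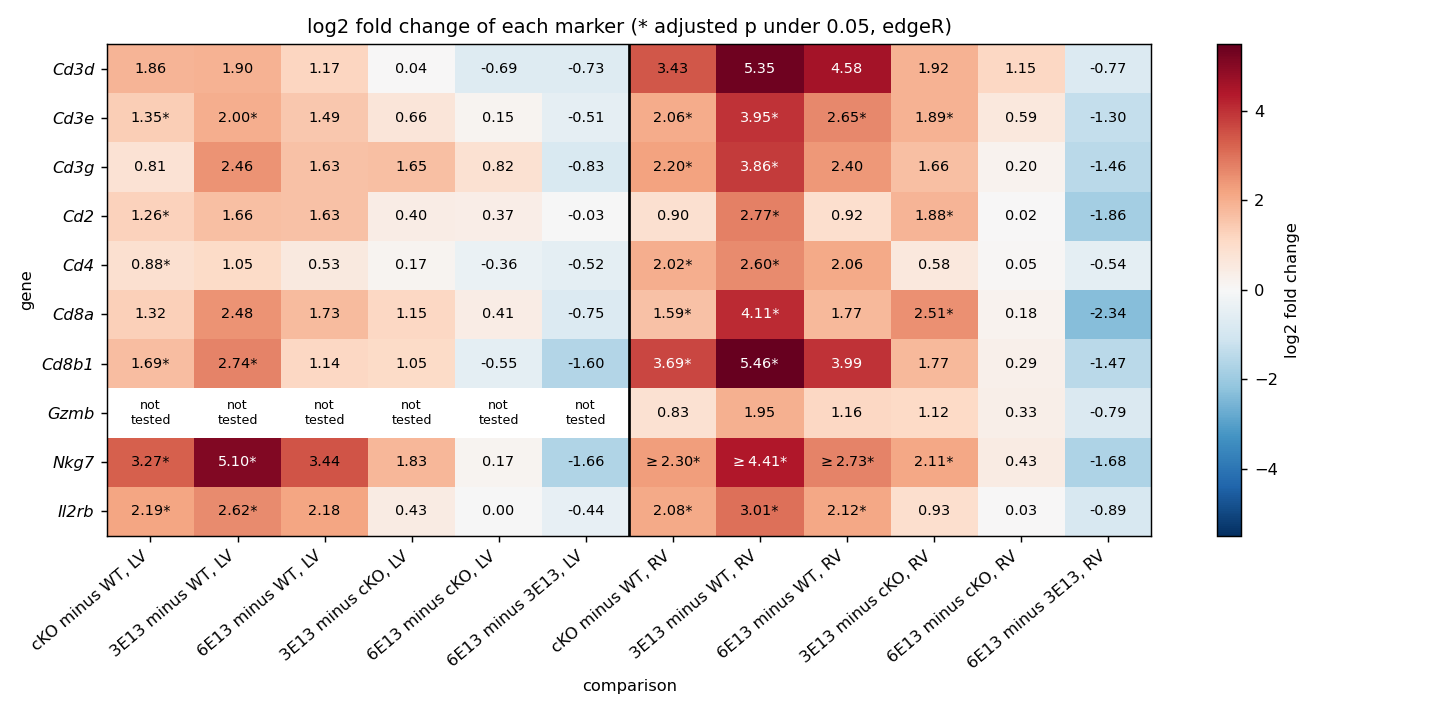
log2 fold change of each marker (rows) in each comparison (columns, LV left and RV right of the line), with the colour scale at the right and an asterisk where the edgeR adjusted p was under 0.05. Nkg7 against the WT RV is drawn at the lower bound that a floor of 3 counts per library gives, Gzmb was not tested in the LV, the values of Cd3d and Cd8b1 against the WT RV rest on 1 and 3 WT counts, and the columns of 6E13 minus cKO hold no asterisk.

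At 6E13 vg/kg, no difference from cKO hearts was detected for any member, and the intervals were wide. The summed CPM in the LV was 8.51 ± 2.22 (n = 3) at 6E13 and 8.19 ± 2.40 (n = 4) in cKO, and in the RV it was 13.7 ± 1.23 (n = 3) and 11.7 ± 4.54 (n = 4). In summed TPM the order was reversed, at 5.33 ± 2.30 for 6E13 and 5.75 ± 2.24 for cKO in the LV. In the RV it was 7.11 ± 0.81 and 8.93 ± 4.56 TPM. No member was called in the LV (edgeR, 0 at an unadjusted p under 0.05, and 0 by DESeq2), where 8.57% of all genes were called higher and 8.1% lower. None was called in the RV either (edgeR, 0 at an unadjusted p under 0.05, and 0 by DESeq2), against 11.2% of all genes higher and 10.8% lower. Over the members, the median log2 fold change was 0.15 in the LV and 0.25 in the RV.

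The spread left room for differences in both directions. Cd3e, the CD3 chain with the most counts, was at 1.67, 1.71 and 0.77 CPM in the 6E13 LV, inside and around the cKO range, with a log2 fold change of 0.15 and a 95% interval from -0.92 to 1.22. In the RV it was at 2.70, 2.84 and 2.16 CPM, where 3 of the 4 cKO libraries were lower, with a log2 fold change of 0.59 and an interval from -0.15 to 1.33. Without cKO 177, the library with the most Ptprc, Cd3e was called in this comparison, with a log2 fold change of 1.04. The lowest and highest values over the members were -0.69 ± 1.15 (Cd3d) and 0.82 ± 0.97 (Cd3g) in the LV and 0.02 ± 0.39 (Cd2) and 1.15 ± 1.04 (Cd3d) in the RV. Gzmb in the LV had a mean of 0.222 CPM at 6E13 and 0.052 CPM in cKO, with an exact two-sided permutation p of 0.114 over 35 arrangements.

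Relative to WT, 3 of 10 members rose in the RV at 6E13, namely Cd3e, Nkg7 and Il2rb, where 0.878% of all genes were called higher. Cd3e rose by 2.65 ± 0.45 (adjusted p = 0.0277) and Il2rb by 2.12 ± 0.39 (adjusted p = 0.0323) by edgeR. Nkg7, at 0.95, 0.74 and 1.02 CPM, was at least 6.65-fold higher than the WT floor. For 9 of the 10 members, with the exception of Gzmb, each 6E13 RV library lay above each WT RV library in CPM. This was so for 12.3% of all genes tested. In TPM it held for 8 members, without Cd2 and Gzmb, and for 26.3% of all genes. The median log2 fold change over the members was 2.26. The number of members called was 0 without WT 637, and 1 without WT 636, WT 647, 6E13 250, 6E13 631 or 3E13 253. DESeq2 called 6. In the LV no member was called (edgeR, 5 at an unadjusted p under 0.05, and 1 by DESeq2), where 0.0731% of all genes were called in either direction. Il2rb had the smallest adjusted p there, 0.0918, at 2.64, 2.01 and 1.00 CPM, all above the highest WT value of 0.58 CPM, with a log2 fold change of 2.18 ± 0.42. It was the 1 member called without 3E13 182 and without 6E13 645.

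The doses were also compared directly. The 9 members fitted in the LV and the 10 in the RV each had a lower fitted level at 6E13 than at 3E13, and none passed the test. Gzmb in the LV, which was not fitted, had a mean of 0.222 CPM at 6E13 and 0.118 CPM at 3E13, with an exact two-sided permutation p of 0.4. In the RV (edgeR, 5 members at an unadjusted p under 0.05), 0.0462% of all genes were called. Cd8a, at 0.89, 0.74 and 1.24 CPM at 6E13 against 3.91 and 5.73 CPM at 3E13, had a log2 difference of -2.34 ± 0.49 and an adjusted p of 0.143. Cd2 had -1.86 ± 0.45 and an adjusted p of 0.2. DESeq2 called these 2 members, and 1, Cd8a, was called with only the compared groups in the fit. In the LV (edgeR, 1 member at an unadjusted p under 0.05, and 0 by DESeq2), 0.0122% of all genes were called, and the member was Cd8b1 at -1.60 ± 0.68 with an adjusted p of 0.904. The 3E13 and 6E13 comparisons with cKO, and those with WT, share their control libraries.

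The balance of the coreceptors and the relation to other leukocyte transcripts describe the RV of 3E13 animals further, with no test. The ratio of Cd8a to Cd4 in CPM was 1.17 and 1.25 in the 2 RV libraries of 3E13. It was 0.23 to 0.42 in the cKO RV and 0.25 to 0.47 at 6E13. In the WT RV it was 0.19, 0.45 and 1.25, the last from 5 counts of Cd8a and 4 counts of Cd4. Summed members amounted to 44.1% and 50.7% of the CPM of Ptprc in the 3E13 RV. They were at 22.2% or less in the cKO RV, 19.8% to 26.3% at 6E13 and 14.6% to 17.0% in WT. In the LV the share was 17.1% to 47.7% at 3E13 and 5.18% to 29.5% in cKO, and these ranges overlapped.

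**Figure D4:**
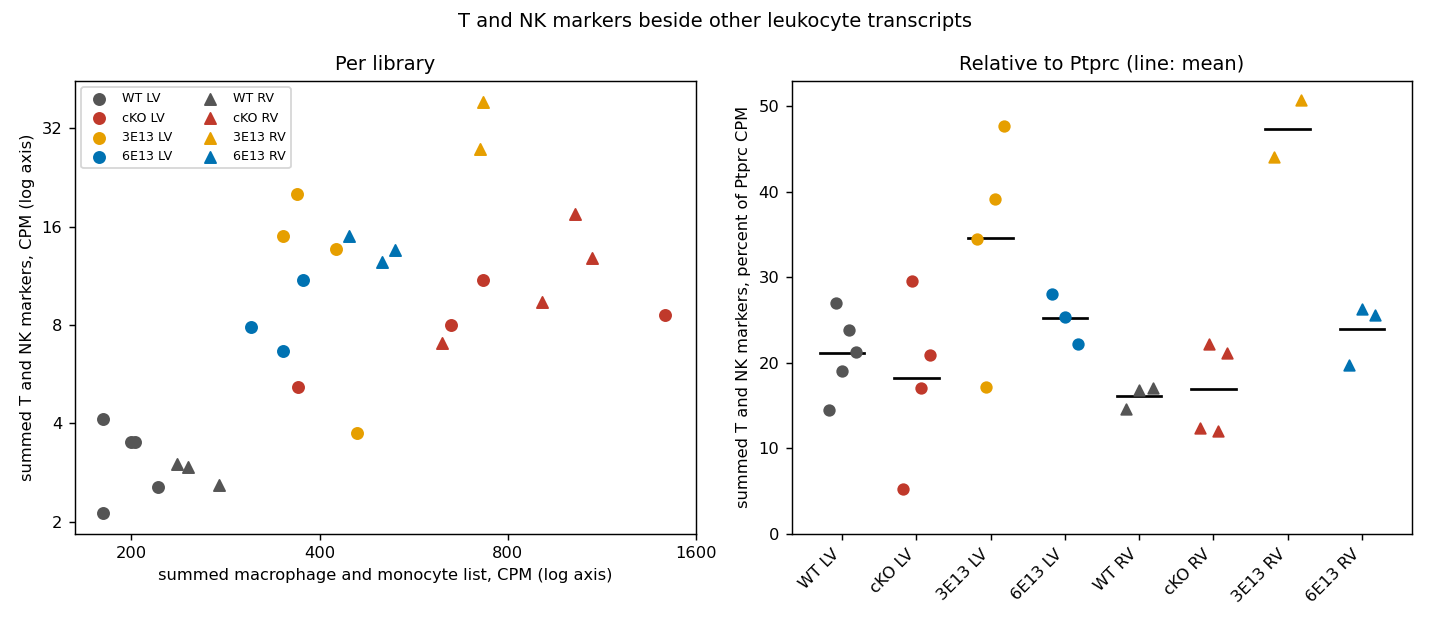
Left, summed CPM of the 10 markers (y axis) against the summed CPM of 15 macrophage and monocyte genes (x axis), both on log axes, per library. Right, summed markers as a percentage of the CPM of Ptprc, with points for libraries and lines for means; the 2 RV libraries of 3E13 stand at 44.1% and 50.7%.

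Other genes of T cells behaved as follows. The list of T cell receptor and T cell signalling genes had 25 of its 30 genes tested in the LV and 27 in the RV. In cKO against WT, 6 rose and 2 fell in the LV, where 2634 of all 16410 genes were called lower. In the RV 11 rose, and 19.7% of all genes were called higher in each ventricle. The LV count of 6 of 25 is near that share. Trbc2, a constant segment of the T cell receptor beta chain, rose by 1.92 ± 0.62 on the log2 scale in the LV (edgeR, adjusted p = 0.0253), and Lck, the kinase that starts T cell receptor signalling, rose by 3.13 ± 0.63 in the RV (adjusted p = 0.00199). Bcl11b, a transcription factor of T cells that other cells of the heart can also express, fell by 1.22 in the LV. For the list, the median log2 fold change was 1.03 in the LV and 1.5 in the RV.

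At 3E13 relative to cKO, 3 genes of this list rose in the RV, beside 4.77% of all genes called higher. Trbc2 had a log2 fold change there of 2.53 ± 0.55 (edgeR, adjusted p = 0.0216), Lck 2.07 ± 0.53 (adjusted p = 0.0348) and Bcl11b 1.64 ± 0.41 (adjusted p = 0.0321). The list's median was 0.92 there, and none of its genes was called in the LV. At 6E13 relative to cKO, Bcl11b rose in both ventricles, by 1.39 ± 0.45 in the LV and 1.21 ± 0.37 in the RV, and the medians were 0.02 and 0.12. Trac, the constant segment of the alpha chain, had no counts in most libraries and 9 counts at most. Foxp3, the factor of regulatory T cells, was at 0.17 ± 0.13 CPM in the WT RV, 0.97 ± 0.20 in cKO, 0.52 ± 0.34 at 3E13 and 1.09 ± 0.50 CPM at 6E13.

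Genes of NK and cytotoxic cells were fewer, with 9 of 22 tested in the LV and 16 in the RV. In cKO against WT, 5 rose in the LV and 6 in the RV, where 19.7% of all genes were called higher in each ventricle. The list medians were 2.42 and 2.83. All 22 genes together summed to a mean of 2.46 CPM in the WT LV and 2.51 CPM in the WT RV. The filter asked for about 0.387 CPM of a gene in the LV and 0.380 CPM in the RV. Genes this low in WT can enter the test through other groups, so these counts and medians only describe them. Ccl5, a chemokine of cytotoxic lymphocytes, rose by 1.88 ± 0.59 in the LV (edgeR, adjusted p = 0.0216) and 2.45 ± 0.33 in the RV (adjusted p = 0.000154). Klrk1, which encodes the activating receptor NKG2D, rose by 2.50 ± 0.65 and 2.75 ± 0.56. Il18rap, a chain of the interleukin-18 receptor, rose by 3.91 ± 0.52 and 3.23 ± 0.56. At 3E13 relative to cKO, 2 genes of this list rose in the RV, beside 4.77% of all genes called higher. Among them was Ccl5, by 2.02 ± 0.30 (adjusted p = 0.00764), while Il18rap fell in the LV by 2.11. At 6E13 relative to cKO, Il18rap fell in the LV by 2.48, and Klrb1c, which encodes the NK receptor NK1.1, fell in the RV (adjusted p = 0.0465), from 0.47 ± 0.12 CPM in cKO to 2 counts at most in a library. Ncr1, which defines NK cells, was at 0.26 CPM or less in each treated library and 0.42 CPM or less in each cKO library, with 14 counts at most.

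Macrophage genes are given beside the members as the most abundant leukocyte list. Of 15 macrophage and monocyte genes tested, 12 rose in cKO against WT in each ventricle, beside 19.7% of all genes called higher in each. C1qa, a complement component of resident macrophages, was higher by 1.76 ± 0.18 in the LV (edgeR, adjusted p = 8.3e-06). Relative to cKO, 7 fell in the LV and 3 in the RV at 3E13, and 8 and 9 fell at 6E13. Of all genes, 6.21% in the LV and 3.81% in the RV were called lower at 3E13, and 8.1% and 10.8% at 6E13. Mrc1, the mannose receptor, fell by 1.34 in the LV and 1.17 in the RV at 6E13. The summed list was at 722.9 and 729.7 CPM in the 3E13 RV, inside the cKO range of 629.1 to 1093 CPM, where the members were above the cKO range. The part of macrophage or other leukocyte transcripts in the member results was not tested.

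Markers of the other cells that can carry members, or of blood, were also summed. The 10 dendritic cell genes summed to 56.1 and 56.7 CPM in the 3E13 RV and to 31.9 to 65.9 CPM in the cKO RV. B cell genes summed to 25.8 and 35.8 CPM in the 3E13 RV and 10.7 to 26.9 CPM in cKO. Mast cell genes summed to 0.98 and 2.71 CPM in the 3E13 RV and 2.36 to 5.60 CPM in cKO. Genes of red blood cells, a measure of blood left in the tissue, summed to 35.8 and 37.2 CPM in the 3E13 RV and 32.6 to 163.1 CPM in cKO. Their part in the member results was not tested.

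Interferon gamma, made by activated T and NK cells, had transcripts (Ifng) in none of the 8 WT libraries and at 0.36 and 0.52 CPM (9 and 15 counts) in the 3E13 RV, with 2 counts at most in a cKO library. Of 17 genes that interferon gamma induces, 8 were higher in the LV and 12 in the RV at 3E13 relative to cKO, and 6 and 9 at 6E13. Of all genes, 5.45% in the LV and 4.77% in the RV were called higher at 3E13, and 8.57% and 11.2% at 6E13. Igtp, an interferon-induced GTPase, had log2 fold changes relative to cKO of 2.58 ± 0.40 in the LV and 2.91 ± 0.37 in the RV at 3E13, and 2.25 ± 0.41 and 2.26 ± 0.34 at 6E13 (edgeR, adjusted p from 0.00124 to 0.00624). In cKO against WT, 1 gene of this list rose and 2 fell in the LV, and 4 fell in the RV, beside 19.7% of all genes called higher in each ventricle. Of all genes tested, 2634 of 16410 in the LV and 3024 of 17307 in the RV were called lower, and the falls in the list are near those shares.

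The genes whose levels followed the members most closely were found over the 28 libraries by Pearson's correlation of log2(CPM + 0.1) with the log2 summed CPM of the members, among 13532 genes that averaged 1 CPM or more. They were Ccl5 (r = 0.96), Lck (r = 0.92), H2-Ab1 (r = 0.92), Cd74 (r = 0.91) and H2-Aa (r = 0.91). Lck and Ccl5 averaged 4.50 and 7.15 CPM in the 3E13 RV and 0.23 and 0.35 CPM in WT. H2-Ab1, H2-Aa and Cd74 belong to the presentation of antigen by MHC class II, and H2-Ab1 averaged 169.7 CPM in the 3E13 RV and 20.8 CPM in WT. The libraries share animals between ventricles and groups between genes, so these values describe the data set and carry no p-value.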

How the data were processed

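RNA of 28 ventricle pieces from 16 mice (12 with both ventricles) was sequenced. The authors quantified transcripts with Salmon 1.8.0 against GRCm39 and deposited, per gene, estimated (expected) counts, TPM and an average transcript length. The labels name both polyA RNA and a total RNA kit with ribosomal RNA removal. The deposited expected counts were rounded to whole numbers, and the row without a gene name, at most 0.00097% of a library, was left out. The deposited TPM were used for levels between genes.

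Counts were scaled by TMM and genes filtered with filterByExpr (a minimum of 10 counts). For each ventricle, 1 fit over its 4 groups by edgeR 4.0.16 (quasi-likelihood, R 4.3.3) gave log2 fold changes, standard errors and p-values, adjusted by Benjamini-Hochberg over all genes tested. The ventricles were compared with the animal as a block, because they came from the same animals. The deviations of both ventricles of an animal from their group means correlated at 0.083 to 0.563 over 12 animals, above 0.1 in 9. Gzmb, removed by the filter in the LV, was tested by exact two-sided permutation. Intervals of counts and floors cover counting error only. Separate animals are the replicates. Of the 38 pairs of libraries from the same group and ventricle, none agreed within sampling noise, and other pairs were not compared.

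The alternatives were no filter, size factors (RLE), DESeq2 1.42.0, limma 3.58.1 on log2(TPM + 1), transcript length offsets, sex as a covariate (inferred per animal by a script, since no label gives it), only the compared groups, no mitochondrial genes, summed levels on plain library size or in TPM, no block, and each library left out. The fit was tested on simulated data. The 10 members were named in full, other genes came from 13 lists (166 of 169 entries matched) as those with the smallest p (up to 4 of the T and NK cell lists, 2 of others), with the 5 genes most alike the members, and Foxp3, Ncr1, Ifng, Trac and some others were named after their values were seen. The members and lists were chosen with earlier results of these data known.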

Additional observations from a re-analysis of the deposited data

Results flagged for a closer look

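Of 44 groups of values tested for a sample far from the others, 1 was singled out, where chance gives about 1 in 20 groups. In the LV of cKO animals, the library of animal 257 had 0.93 CPM of Cd3g, and the other 3 libraries had 0.20 to 0.26 CPM.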

How the results depend on the processing

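Low counts limited every result: WT libraries held few reads of most members, and 3E13 had 2 RV libraries. On plain library size, folds against WT were higher by 0.46 (cKO LV), 0.65 (cKO RV), 0.13 (3E13 LV), 0.27 (3E13 RV), 0.11 (6E13 LV) and 0.20 (6E13 RV) on the log2 scale, for every gene alike. The cause of the changes below was not tested.

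Of the members called in cKO against WT in the LV (6), 2 were called without the filter or with length offsets, 3 with only the compared groups, and 1 to 6 with a library left out. For 3E13 against WT in the LV (4), DESeq2 called 7, limma on log2(TPM + 1) 0, and leaving out a library gave 1 to 6. For 3E13 against cKO, the 4 calls of the RV became 1 with only the compared groups, 1 without cKO 180 and 257 (chosen after seeing the data) and 0 to 5 with a library left out, and in the LV leaving out a library gave 0 to 1. For 6E13 against WT, the 3 calls of the RV became 6 by DESeq2, 0 by limma, 1 with sex as a covariate and 0 to 3 with a library left out, and the 0 of the LV became 1 by DESeq2, 1 with only the compared groups and 0 to 1 with a library left out. For 6E13 against cKO in the RV, leaving out a library gave 0 to 1. For 6E13 against 3E13 in the RV, DESeq2 called 2 and the fit of the compared groups 1. Without the replicate block, 0 members were called between the ventricles, as with it.

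The summed levels relative to WT in the cKO LV, 2.58, were 3.66 on plain library size and 3.71 in TPM. They were 4.63 and 5.09 for 3E13 LV, 2.95 and 3.44 for 6E13 LV, 6.71 and 8.13 for cKO RV, 14.1 and 16.3 for 3E13 RV, and 5.54 and 6.47 for 6E13 RV. On both of these scales the sum was higher in cKO than at 6E13 in each ventricle, the reverse of the order in TMM-scaled CPM.

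Some small log2 differences changed sign. Cd2 at 6E13 against cKO in the RV, 0.02, was -0.29 by limma, -0.055 with length offsets, -0.13 without 6E13 250, -0.097 without 6E13 631, -0.12 without cKO 180, -0.089 without cKO 257 and -0.33 without both. Cd3e at 6E13 against cKO in the LV, 0.15, was -0.13 by limma, -0.0098 without 6E13 250, -0.023 without 6E13 631 and -0.013 without cKO 180, and 0.44 without 6E13 645. Cd4 at 3E13 against cKO in the RV, 0.58, was -0.20 by limma. Of the values of single genes under alternatives, 1800 were graded the same as in the main fit, 21 stronger, 224 weaker and 12 reversed in sign.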
